A study of Mus musculus with 7 samples.

Results

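Mbp, Pmp22, Prx, S100b and Sox10, 5 genes of the myelin sheath and of the Schwann cells that make it, were followed through 7 mouse tibialis anterior muscles cut into cryosections. The 5 rows were taken by gene name from the 53083 genes shared by all 7 tables. By their titles, the muscles formed a WT group of 2, a Ctr group of 2 and a DMD group of 3, the last named after the Duchenne muscular dystrophy of the series title. Column names in the file headers carry pax7 for WT, hDMD for Ctr and mdx for DMD, and the labels explain none of these, nor do they give a genotype, treatment, age or sex. The tissue label is tibialis anterior muscle in every group. RNA was extracted from single sections, so each muscle gave both a whole-muscle level (the sum of its sections) and a profile along its section order.

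Motor and sensory axons enter a limb muscle inside a nerve trunk and branch out from it to the fibres and sense organs. Larger axons are wrapped in myelin by Schwann cells, each of which lays down a compacted spiral of its own membrane around a single axon. Sox10 is the transcription factor that specifies and maintains the Schwann cell lineage and, with Egr2, switches on the myelin genes. Mbp (myelin basic protein) binds the inner membrane faces of compact myelin together, Pmp22 (peripheral myelin protein 22) is a membrane protein of compact myelin whose dosage is altered in Charcot-Marie-Tooth neuropathies, and Prx (periaxin) links the outer Schwann cell membrane to the basal lamina. S100b is a calcium-binding protein used as a marker of Schwann cells, including the terminal Schwann cells that cap the neuromuscular junction. Pmp22 is also transcribed in many cells outside nerve, and the Mbp locus also gives rise to golli transcripts in immune and other cells.

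Pmp22 was the 1 gene of the 5 called between groups (edgeR test), so the stretches before its first 2 start sites are shown. The gene is known to have alternative first exons, one used mainly in myelinating Schwann cells and another used widely, and which RefSeq start corresponds to which was not assigned here. Counts summed per gene do not tell the starts apart. The sequences are the 250 bases before each start in the RefSeq promoter table (GRCm38.p6), at 11:63128732-63128981 and 11:63131207-63131456, on the plus strand and outside every annotated exon. The window before the Prx start (7:27499074-27499323) is printed with them because it was the only one of the members' windows with a match to a searched motif, which stands in capitals.
Pmp22 start 1: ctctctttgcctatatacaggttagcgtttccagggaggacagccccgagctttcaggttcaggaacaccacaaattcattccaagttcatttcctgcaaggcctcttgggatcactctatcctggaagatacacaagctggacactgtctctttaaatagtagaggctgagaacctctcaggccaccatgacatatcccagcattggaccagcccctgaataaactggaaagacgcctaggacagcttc
Pmp22 start 2: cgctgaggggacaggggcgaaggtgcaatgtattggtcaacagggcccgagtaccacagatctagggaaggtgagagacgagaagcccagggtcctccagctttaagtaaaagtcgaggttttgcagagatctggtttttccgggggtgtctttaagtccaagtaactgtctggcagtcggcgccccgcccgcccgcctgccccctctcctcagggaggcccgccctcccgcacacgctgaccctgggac
Prx start 1: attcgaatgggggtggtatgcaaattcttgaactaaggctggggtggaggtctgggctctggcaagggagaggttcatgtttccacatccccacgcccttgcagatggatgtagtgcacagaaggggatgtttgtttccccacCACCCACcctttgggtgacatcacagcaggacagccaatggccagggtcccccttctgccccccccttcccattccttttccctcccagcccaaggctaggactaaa
The first Pmp22 window was 48.8% G and C and the second 61.2%, against a median of 52.4% over the windows of all 32817 RefSeq starts. The 6 windows of the 3 members in the table (Prx, S100b and 4 starts of Pmp22) were searched on both strands for ACAAAG and ACAATG, letters of SOX factor motifs, and for GTGGGNG, letters of the EGR motif. None of the 6 held the SOX letters, which 25.2% of all windows held in either form. The EGR letters occurred once, in the Prx window, 107 bases before the start, and 28.1% of all windows held them. A match is a description of the letters and not a bound site.

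In GRCm38 coordinates, Pmp22 lies at 11:63128982-63159547, Prx at 7:27497388-27520214 and S100b at 10:76253853-76261159, all on the plus strand. Mbp lies at 18:82475146-82585637 on the plus strand and Sox10 at 15:79154908-79165240 on the minus strand. The counts are sums over all exons of a gene, and no gene on the same strand overlapped any of the 5 in the reference annotation. The tables held 525 sections, of which 422 passed a filter on low totals (114 WT, 116 Ctr and 192 DMD). Their counts summed to 11181994 to 41407203 per muscle, and the median kept section held 162467 to 654073 counts. Levels are given in CPM (counts relative to the total of the library) after TMM scaling, which sets a factor per muscle from the bulk of its genes, unless said to be unscaled. Intervals of levels and of count ratios are 95% intervals that cover counting error only. Nothing in the labels tells whether each muscle is from its own animal, and p-values measure only the spread among these 7 samples, which may be technical. Standard errors of log2 folds, printed after ±, are approximate. Genes of different length were counted together, so levels are compared between muscles within a gene and not between genes. The WT tables were counted with another annotation than the Ctr and DMD tables, so in any comparison with WT the group and the annotation cannot be told apart. Of 5 markers of myelinating Schwann cells that hold no member (Mag, Mal, Cldn19, Ncmap and Egr2), none was at 0 in all muscles, and their sum was 1.6 to 3.15 CPM in Ctr, 1.47 to 1.67 in WT and 1.26 to 2.76 in DMD. The sum joins genes of different direction. Mean levels in Ctr and DMD were 0.622 and 1.04 CPM for Egr2 and 0.317 and 0.334 for Mag. They were 0.329 and 0.232 for Mal, 0.556 and 0.271 for Cldn19 and 0.552 and 0.202 for Ncmap. Egr2 was not called in DMD over Ctr (edgeR adjusted p = 0.48), and the others had too few counts to be tested. The sum of 5 melanocyte markers, a second cell type that expresses Sox10, did not exceed 0.164 CPM in any muscle, with Tyr and Tyrp1 at 0 throughout.

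Whole-muscle levels of the 5 genes did not move as a block between Ctr and DMD. Pmp22 rose in DMD, by 1.81-fold, while Mbp, Prx, S100b and Sox10 had lower mean levels in DMD, none of which passed the test. Of 13746 genes tested, 12.7% were called in this comparison at an adjusted p below 0.05 (edgeR quasi-likelihood test with Benjamini-Hochberg adjustment), and 1 of the 5 genes was. The median log2 fold of the 5 was -0.68, beside 0.02 over all genes tested. The scaling factors ran from 0.669 to 0.804 for WT muscles, from 0.962 to 1.04 for Ctr and from 0.983 to 1.41 for DMD. Without them the median of all genes moved to 0.33 for DMD over Ctr and to 0.82 for DMD over WT, so unscaled levels are given beside the scaled ones where an order of muscles turns. In whole sections, fewer Schwann cells and less RNA per Schwann cell cannot be told apart.

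**Figure D1:**
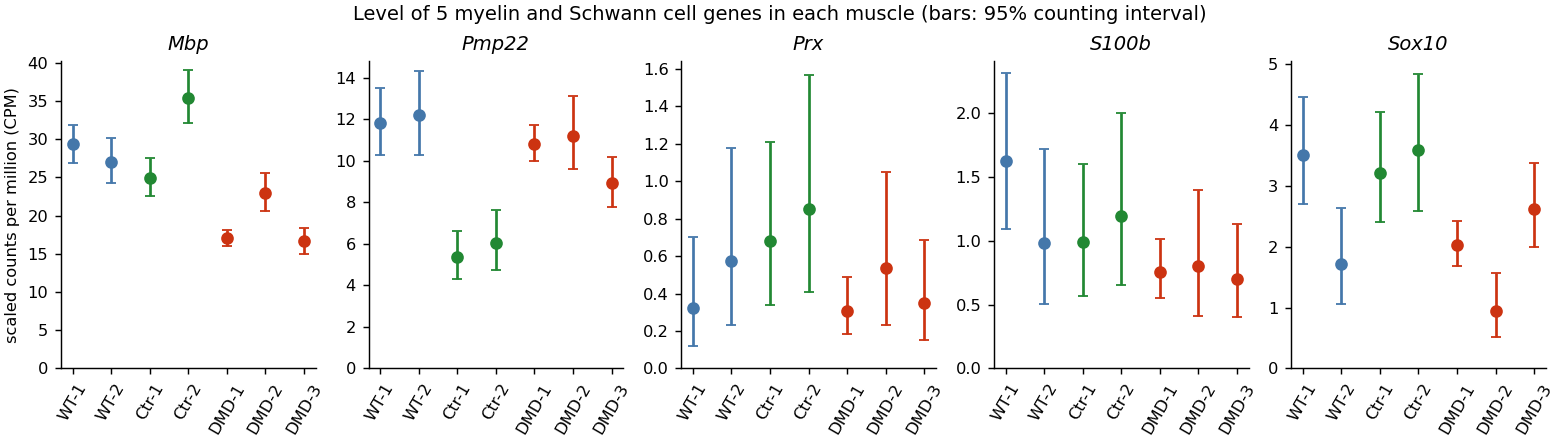
Scaled level of each gene (y axis, CPM, each panel with its own scale) in the 7 muscles (x axis; WT blue, Ctr green, DMD red); points are muscles and bars 95% counting intervals. Mbp was at 16.7 to 22.9 CPM in the DMD muscles and at 24.9 to 35.4 in the others, while Pmp22 was lowest in the 2 Ctr muscles; unscaled, the Mbp levels of DMD overlapped those of both other groups.

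Mbp was measured at 29.3 and 27 CPM in the WT muscles, 24.9 and 35.4 in the Ctr muscles and 17, 22.9 and 16.7 in the DMD muscles, from 330 to 991 counts per muscle. The 3 DMD muscles were the lowest of the 7 on this scale. Unscaled, Mbp was at 23.9, 30.7 and 16.4 CPM in DMD, 23.6 and 18.1 in WT and 26 and 34 in Ctr, so that DMD overlapped both other groups. Against Ctr the log2 fold was -0.68 ± 0.23, an edgeR adjusted p of 0.074. An approximate 95% interval, taken from the standard error, ran from -1.12 to -0.24. Against WT the log2 fold was -0.58 ± 0.23, an edgeR adjusted p of 0.106. Neither difference passed the edgeR test. The sign against Ctr was the same in all 14 alternatives (-0.34, adjusted p = 0.489, with totals alone), and that against WT turned to 0.18 (adjusted p = 0.631) with totals alone. WT and Ctr overlapped in scaled Mbp and not in unscaled Mbp, with a log2 fold of WT over Ctr of -0.10 ± 0.25.

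Pmp22 was at 11.8 and 12.2 CPM in WT, 5.37 and 6.04 in Ctr and, in DMD, 10.8, 11.2 and 8.94, from 71 to 632 counts. The Ctr muscles stood below all 5 others, scaled or not. DMD lay below WT on the scaled levels, while unscaled DMD-1 and DMD-2 (15.3 and 15 CPM) lay above both WT muscles (9.48 and 8.16). DMD over Ctr gave a log2 fold of 0.86 ± 0.21 with an edgeR adjusted p of 0.0307. DMD over WT gave -0.22 ± 0.20, an adjusted p of 0.483, and 0.56 with totals alone (adjusted p = 0.157). WT over Ctr gave 1.07 ± 0.23 with an adjusted p of 0.0733 (0.63 with totals alone, adjusted p = 0.296), in a comparison in which edgeR called 0.364% of genes and none of the 5, while DESeq2 called Pmp22 (adjusted p = 0.019). The call of DMD over Ctr was lost without either Ctr muscle (adjusted p = 0.227 without Ctr-1 and 0.0802 without Ctr-2) and without DMD-1 (0.0801) or DMD-2 (0.0646). It was also lost with the Ctr and DMD groups alone in the fit (0.0643) and with sections thinned to equal depth (0.181), and the log2 fold stayed between 0.61 and 1.19 in all 14 alternatives, the highest with totals alone (adjusted p = 0.0398).

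Markers of other cells that can transcribe Pmp22 moved between the same groups. The sum of 8 fibro-adipogenic progenitor markers was 268 to 424 CPM in Ctr, 430 to 547 in WT and 645 to 1370 in DMD. The sum of 8 macrophage markers ran from 51.8 to 85.2 CPM in Ctr, from 65 to 77.2 in WT and from 180 to 917 in DMD, with 8 of the 8 genes called higher in DMD than in Ctr. In WT, Pmp22 stood at 11.8 and 12.2 CPM beside macrophage sums in the range of Ctr. DMD-3, with the lowest macrophage sum of the DMD muscles (180 CPM), also had the lowest Pmp22 of the 3. The sum of 8 tendon markers was 5.92 to 13.2 CPM in Ctr, 25.6 to 34.8 in DMD and 36.7 to 51.4 in WT, the order of groups seen in scaled Pmp22. Of 7 tendon markers tested, 5 were called higher in DMD than in Ctr (12.7% of all genes called). In WT over Ctr, 2 of the 7 were called higher (0.364% of all genes called). The part of these cells in the Pmp22 level was not tested.

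Sox10, the lineage transcription factor, was at 3.5 and 1.72 CPM in WT, 3.21 and 3.58 in Ctr and, in DMD, 2.02, 0.936 and 2.62. All DMD muscles were below both Ctr muscles, scaled or not, while WT-1 and WT-2 lay on either side of DMD-1 and DMD-3 on the scaled levels. DMD over Ctr gave a log2 fold of -0.83 ± 0.42 with an edgeR adjusted p of 0.207. The counts behind these levels ranged from 14 in DMD-2 to 118 in DMD-1, so the interval for DMD-2 ran from 0.512 to 1.57 CPM.

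S100b was at 1.62 and 0.983 CPM in WT, 0.987 and 1.19 in Ctr and, in DMD, 0.755, 0.802 and 0.698, on 12 to 44 counts per muscle. The 3 DMD muscles were the lowest on this scale, and their counting intervals overlapped those of every Ctr muscle. Unscaled, S100b was at 1.06, 1.07 and 0.685 CPM in DMD, within the range of WT (1.3 and 0.657), and at 1.03 and 1.15 in Ctr. The log2 fold of DMD over Ctr was -0.53 ± 0.38 (edgeR adjusted p = 0.38), and that of DMD over WT -0.81 ± 0.37 (adjusted p = 0.154). Prx, the least counted of the 5, was at 0.323 and 0.573 CPM in WT, 0.679 and 0.851 in Ctr and, in DMD, 0.309, 0.535 and 0.349, on 6 to 18 counts. Both Ctr muscles were above the other 5, except that unscaled DMD-2 (0.715 CPM) was above Ctr-1 (0.706). The log2 fold of DMD over Ctr was -1.0 ± 0.49 (edgeR adjusted p = 0.2).

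Against WT, 15.2% of genes were called in DMD and none of the 5 was, by edgeR or by DESeq2. At an unadjusted p, 1 of the 5 (Mbp, 0.0276) was below 0.05. Sox10 and Prx gave log2 folds of DMD over WT of -0.48 ± 0.42 and -0.20 ± 0.53, which turned to 0.19 and 0.57 with totals alone. For WT over Ctr, S100b gave 0.29 ± 0.42, Sox10 -0.35 ± 0.46 and Prx -0.80 ± 0.57, with edgeR adjusted p-values of 0.496 to 0.757. The comparisons of DMD with Ctr and of WT with Ctr share the Ctr muscles, so the position of Pmp22 in both rests on the same 2 muscles.

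The ratio of Mbp to Pmp22 counts, which no scaling factor touches, put the 2 genes side by side in each muscle. It was 2.48 and 2.22 in WT, 4.65 and 5.85 in Ctr and, in DMD, 1.57, 2.04 and 1.86. The 3 groups did not overlap, with Ctr highest and DMD lowest. Counting intervals separated both Ctr muscles (lowest bound 3.69) from all others (highest bound 2.91), whereas those of WT-2 (1.83 to 2.69) and DMD-2 (1.7 to 2.46) overlapped. This ratio was examined after the levels had been seen, and it is given without a test. Along the section order, in 3 portions of equal numbers of sections described further on, the ratio in the first, middle and last portion was 5.26, 4.81 and 2.87 in Ctr-1 and 8.1, 7.2 and 2.85 in Ctr-2. It was 3.33, 2.18 and 1.6 in WT-1 and 2.56, 2.36 and 1.19 in WT-2. In DMD it was 1.69, 1.8 and 1.2, then 1.92, 2.38 and 1.67, and then 2.51, 1.88 and 0.898 in DMD-1 to DMD-3. The last portion had the lowest ratio in each of the 7 muscles. In the first and the middle portion both Ctr muscles were above all others, whose highest value was 3.33.

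**Figure D2:**
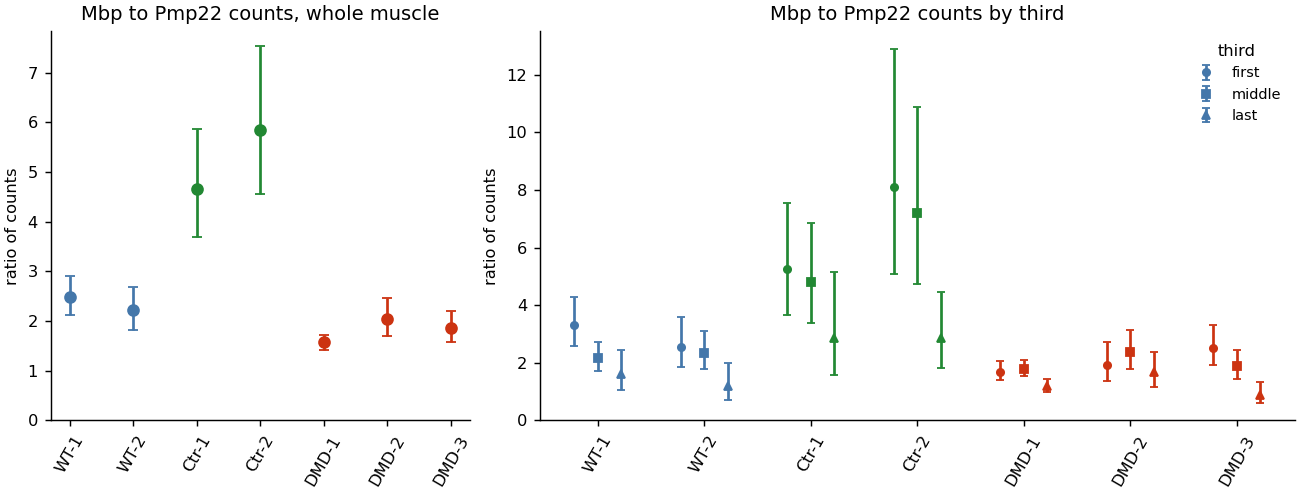
Ratio of Mbp to Pmp22 counts (y axis, no unit) in each muscle (x axis; WT blue, Ctr green, DMD red), over the whole muscle on the left and in each portion of the section order on the right (circle first, square middle, triangle last); bars are 95% counting intervals. The Ctr muscles stand apart over the whole muscle (4.65 and 5.85), and the last portion is the lowest of each muscle.

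The 5 genes were next placed along the muscle. Sections were ordered by the number in their column name. The labels do not state that this number is the position, or which end is proximal, so directions along the order have no anatomical name here. For the tests the kept sections of a muscle were divided into 3 equal portions (first, middle, last). Mbp, Sox10 and Pmp22 were higher in the first portion than in the last. Mbp was also higher in the middle portion than in the mean of the first and the last. Its middle portion was above each of them in only 2 of 7 muscles.

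Mbp in the first, middle and last portion was 46.7, 29.7 and 10.4 CPM in WT-1 and 35.1, 30 and 10.8 in WT-2. It was 32.5, 30.8 and 8.42 CPM in Ctr-1 and 54.6, 43.1 and 15.6 in Ctr-2. In DMD-1 it was 16.6, 22.8 and 13.9 CPM, in DMD-2 19.4, 32.8 and 17.3, and in DMD-3 22, 18.9 and 7.15. The last portion was the lowest in 7 of 7 muscles. The WT and Ctr muscles and DMD-3 descended along the order, while DMD-1 and DMD-2 peaked in the middle portion. Over all groups, first over last gave a log2 fold of 1.48 ± 0.12 (edgeR adjusted p = 9.21e-09), in a comparison with 3.79% of 10124 genes called. Middle over ends gave 0.62 ± 0.10 (adjusted p = 0.000573) with 0.237% called, and this call was lost without Ctr-1 (log2 fold 0.56, adjusted p = 0.0603).

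In finer steps, of 10 equal bins per muscle in unscaled CPM, Mbp was highest in the third bin in 5 muscles and in the fourth in DMD-1 and DMD-2. WT-1 reached 61.2 CPM in the third bin from 11 in the first and 1.08 in the last. Ctr-1 went from 5.71 CPM in the first bin to 55.2 in the third and 7.82 in the last, and Ctr-2 peaked at 76.2. The profile was thus a rise within the first 3 or 4 bins followed by a long decline, and the first bin was above the last only in WT-1 and Ctr-2. DMD-1 stayed between 12.6 and 34.4 CPM and DMD-2 between 14.9 and 51.7 over their 10 bins, a narrower spread than in WT-1 or Ctr-1. DMD-3 went from 4.94 CPM in the first bin to 36.9 in the third and 5.45 in the last.

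**Figure D3:**
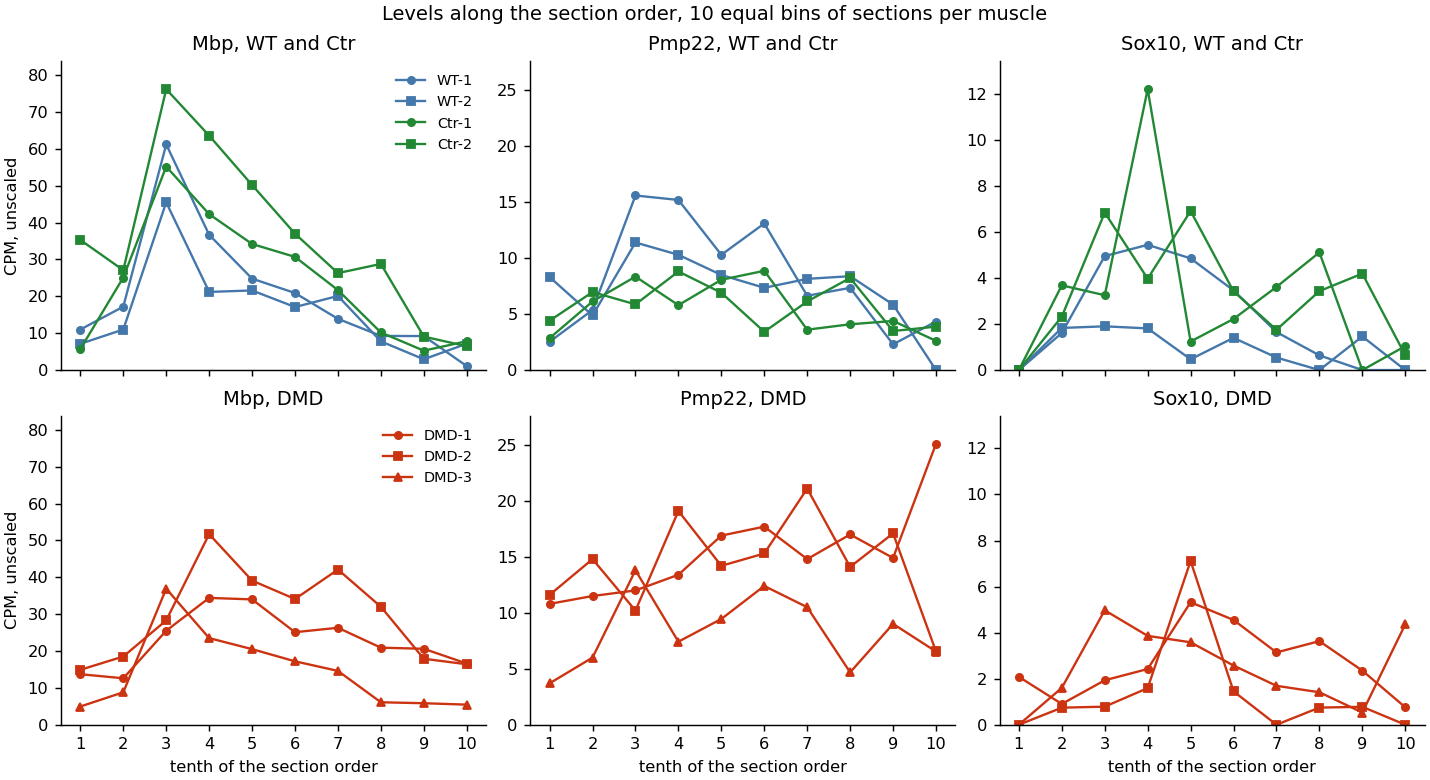
Unscaled level (y axis, CPM) of Mbp, Pmp22 and Sox10 in 10 equal bins of the section order (x axis, bin number), 1 line per muscle, with WT (blue) and Ctr (green) in the upper row and DMD (red) in the lower row. Mbp peaks in bin 3 or 4 in every muscle, at 34.4 to 76.2 CPM, and Pmp22 has no common peak.

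The difference of Mbp between first and last portion was also measured in each group. Its log2 fold was 1.98 ± 0.24 in WT, 1.85 ± 0.23 in Ctr and 0.60 ± 0.17 in DMD. The test of the difference, DMD minus Ctr, was added after these values had been seen and gave -1.26 ± 0.29 with an edgeR adjusted p of 0.0953. In that comparison edgeR called 0.0691% of genes and none of the 3 members tested, of which Mbp and Pmp22 had an unadjusted p below 0.05. The adjusted p ranged from 0.000503 to 0.782 over the alternatives, and the difference was called without DMD-3 (log2 -1.63, adjusted p = 0.00114), with ends of 20% of sections each (0.0463) and with no filter on low counts (0.000503). In middle over ends, the difference DMD minus Ctr was -0.11 ± 0.23 in Mbp, with 0.00988% of genes called and none of the members, of which 0 had an unadjusted p below 0.05 in the edgeR fit.

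Macrophage markers were also followed along the order in DMD. In the first, middle and last portion they summed to 665, 843 and 1370 CPM in DMD-1, to 846, 1050 and 728 in DMD-2 and to 153, 203 and 188 in DMD-3. DMD-1 and DMD-2, in which Mbp peaked in the middle portion, were the muscles with the higher sums. Golli and myelin transcripts of the Mbp locus share exons and were counted together, and the part of immune cells in the Mbp profile was not tested.

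Sox10 was also higher in the first than in the last portion. First over last gave a log2 fold of 1.14 ± 0.25 (edgeR adjusted p = 0.0076), and the first portion was above the last in 6 of 7 muscles. WT-1 had 4.8, 4.17 and 1.11 CPM in the first, middle and last portion and Ctr-1 had 4.06, 3.63 and 1.57. DMD-1, with 1.46, 3.26 and 1.56 CPM, was the exception. Ctr-2 (3.37, 4.55 and 2.74 CPM) and DMD-2 (0.826, 1.55 and 0.431) were, like DMD-1, highest in the middle portion. In 10 bins, Sox10 was at 0 in the first bin of all muscles but DMD-1 and highest in bins 3 to 5. The call was lost without WT-1 (adjusted p = 0.249) and without Ctr-1 (0.181). Middle over ends gave 0.70 ± 0.19 with an adjusted p of 0.19.

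Pmp22 had the smallest first over last fold of the 3 genes tested along the order, and the differences between genes were not tested. It gave a log2 fold of 0.48 ± 0.14 (edgeR adjusted p = 0.0393), with the first portion above the last in 5 of 7 muscles. WT-1 had 14, 13.6 and 6.49 CPM, Ctr-1 6.18, 6.4 and 2.94, DMD-1 9.81, 12.7 and 11.6 and DMD-2 10.1, 13.8 and 10.4. DMD-1 and DMD-2 were the 2 muscles in which the last portion was not below the first. The call was lost without WT-1 (adjusted p = 0.338), WT-2 (0.0758), Ctr-1 (0.403), Ctr-2 (0.0593) or DMD-3 (0.0742), with no filter on low counts (0.0605) and with ends of 20% each (0.542). The highest bin ranged from bin 3 to bin 10 across muscles. DMD-1 was highest in its last bin, at 25.1 unscaled CPM, where macrophage markers of that muscle were also highest by portion.

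S100b and Prx had too few counts per portion to pass the filter. Prx counted 0 in the last portion of both Ctr muscles and in the first portion of DMD-1, and S100b counted 0 in the last portion of Ctr-1. Without the filter, S100b gave a middle over ends log2 fold of 0.94 ± 0.28 (edgeR adjusted p = 0.295) and Prx 1.56 ± 0.54 (0.601).

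The markers of other cells along the same order were called as follows. Beside the 3.79% of all genes called, 3 of 6 pericyte and smooth muscle markers (Acta2, Myh11 and Tagln), 2 of the 2 adipocyte markers tested of 5 (Adipoq and Fabp4) and 1 of 6 endothelial markers (Kdr) were higher in the first than the last portion. Of 6 tendon markers tested of 8, 4 were lower in the first than in the last. Of 8 fibro-adipogenic progenitor markers, 1 was higher and 1 lower in the first portion. Of 5 skeletal muscle fibre markers, 1 was lower in it, and none of 8 macrophage markers was called. The other pericyte markers, Rgs5, Cspg4 and Pdgfrb, gave log2 folds of -0.05, -0.21 and -0.10. The summed tendon markers ran against Mbp over the bins in 7 of 7 muscles, with correlations of -0.769 to -0.514. The endothelial sum ran with Mbp at a mean correlation of 0.471 and the pericyte and smooth muscle sum at 0.439, each above 0 in 7 of 7 muscles. The part of these cells in the profiles was not tested.

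Terminal Schwann cells cap the neuromuscular junction, so the genes were also compared between sections rich in 6 endplate genes and the remaining sections of each muscle. In each muscle the 20% of kept sections with the highest mean z-score of Chrne, Colq, Ufsp1, Etv5, Etv4 and Chrnd were called endplate-rich. The name stands for high levels of these 6 genes only, and whether such sections hold more endplates, in DMD or elsewhere, was not tested. None of the 3 members tested was called by edgeR, in a comparison with 0.0468% of 10683 genes called. At an unadjusted p, Mbp (0.00176) and Pmp22 (0.0011) were below 0.05 and Sox10 (0.0613) was not.

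Mbp stood at 26.3 against 30.4 CPM in the endplate-rich and remaining sections of WT-1 and at 33.3 against 25.6 in WT-2. It stood at 27.8 against 23.6 CPM in Ctr-1 and 55.2 against 29.8 in Ctr-2, and in DMD at 18.4 against 17.6, 32.7 against 21.1 and 25.3 against 14.3. It was thus higher in 6 of 7 muscles, with a log2 fold of 0.35 ± 0.10 (edgeR adjusted p = 0.404). Mbp was called in 5 of 13 alternatives, at adjusted p-values from 0.000172 to 0.93 over all of them. Pmp22 stood at 15.6 against 10.4 CPM in WT-1, 11.6 against 12.7 in WT-2, 8.89 against 4.33 in Ctr-1 and 7.94 against 5.49 in Ctr-2. In DMD it stood at 12 against 11.1 CPM, 12.4 against 11.3 and 11.7 against 8.26. WT-2 was the exception among the 7 muscles, and the log2 fold was 0.45 ± 0.12 (adjusted p = 0.321).

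Sox10 was higher in the endplate-rich sections of 6 of 7 muscles, from 5.63 against 2.51 CPM in Ctr-1 to 0.982 against 0.957 in DMD-2, and lower in DMD-1 (1.44 against 2.31). Its log2 fold was 0.35 ± 0.18 (edgeR adjusted p = 0.757). S100b, the marker that terminal Schwann cells share, did not pass the filter on low counts. It was measured higher in 6 of 7 muscles on 3 to 11 counts in the endplate-rich sections of a muscle. Prx, which did not pass it either, was measured higher in 5 of 7 on 1 to 5 counts. Without the filter, S100b gave a log2 fold of 0.38 ± 0.29 and Prx 0.43 ± 0.48, and neither was called. Of the endplate-rich sections, 46.2 to 80% lay in the middle portion of the order. In DMD-1 as many lay in the last portion (46.2%), and in DMD-2 30.8% did. Over all groups, 1 of 6 tendon markers was lower in the endplate-rich sections. Within DMD, the median log2 fold was 0.34 over 8 macrophage markers and -0.53 over 6 tendon markers, beside 0.02 over all genes tested. Over all groups the median of the 8 macrophage markers was 0.13, and none of them was called. The part of position and of these cells in the differences was not tested.

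**Figure D4:**
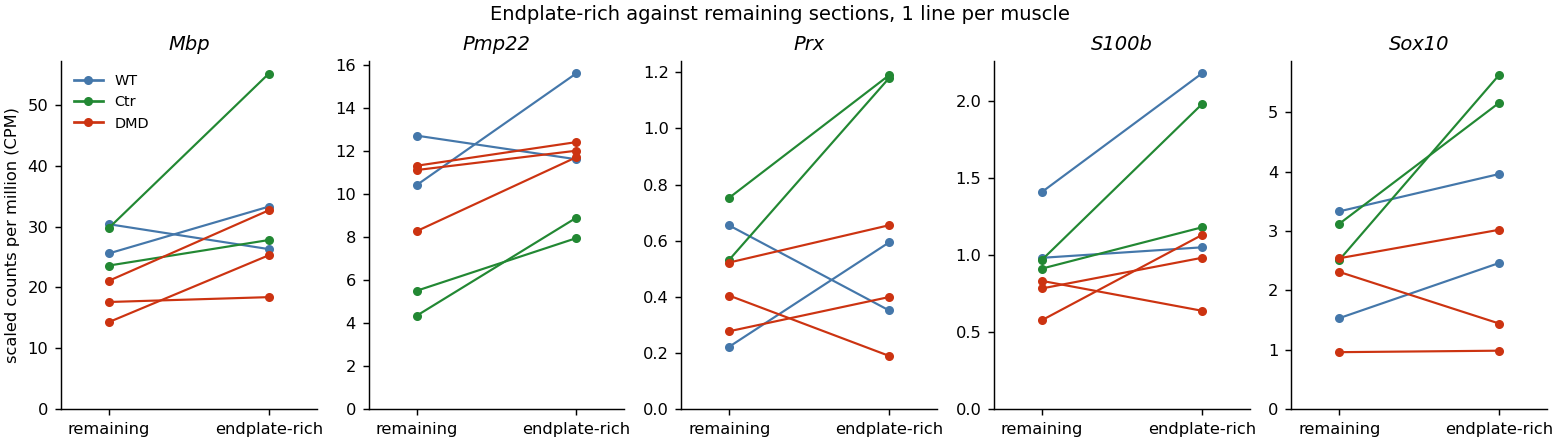
Scaled level of each gene (y axis, CPM, own scale per panel) in the remaining and the endplate-rich sections (x axis) of each muscle, 1 line per muscle (WT blue, Ctr green, DMD red). The lines rise in 6 of 7 muscles for Mbp, Pmp22, S100b and Sox10 and in 5 of 7 for Prx.

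Other genes of the Schwann cell and its nerve were read from lists drawn up with earlier results of the series known. Among 11 genes of the Schwann lineage and of non-myelinating Schwann cells, 5 were tested and 2 rose in DMD over Ctr, with a median log2 fold of 1.17 over the 5, beside 0.02 over all genes and 12.7% of them called. Ncam1, a neural cell adhesion molecule that regenerating muscle fibres and satellite cells also make, rose by a log2 fold of 2.51 ± 0.61 (edgeR adjusted p = 0.03), and Scn7a, a sodium channel of non-myelinating Schwann cells, by 1.17 ± 0.34 (0.0488). The others tested gave 1.32 ± 0.53 (Ngfr), 0.31 ± 0.40 (L1cam) and -1.62 ± 0.55 (Foxd3), and none of these was called. The median leaves out the genes with too few counts to be tested. Among those, Sox2 averaged 0.614 CPM in Ctr and 0.082 in DMD, Cdh19 0.228 and 0.112, and Gfra3 0 and 0.0597. Against WT, Ncam1 rose by 2.36 ± 0.59, and Foxd3, a neural crest factor, fell by 2.55 on the log2 scale (SE 0.51, adjusted p = 0.0157). Foxd3 averaged 1.19 CPM in WT (SD 0.065, n = 2), 0.602 in Ctr (SD 0.37, n = 2) and 0.19 in DMD (SD 0.0554, n = 3). The call of Ncam1 over Ctr was lost without Ctr-1 (adjusted p = 0.228), DMD-1 (0.0819) or DMD-2 (0.0624), and that of Scn7a without any muscle of Ctr or DMD but DMD-3 (0.1 to 0.234), with DESeq2 (0.0572), thinned sections (0.138), the 2 groups alone (0.0754) or totals alone (0.0602). Over WT, Ncam1 was lost without WT-1 (0.219), WT-2 (0.17), DMD-1 (0.0778) or DMD-2 (0.061), and Foxd3 without WT-1 (0.141) or WT-2 (0.133). Satellite cell markers summed to 2.89 to 3.08 CPM in Ctr, 3.93 to 4.2 in WT and 3.92 to 6.12 in DMD, and their part in the Ncam1 level was not tested.

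Of 6 genes that Schwann cells switch on after nerve injury, 3 were tested and 1 rose in DMD over Ctr (12.7% of all genes were called). Their log2 folds were -0.50 (Jun), 1.65 (Gdnf) and 2.31 (Runx2). Gdnf, with 3 counts in WT, 7 in Ctr and 85 in DMD, passed the filter on low counts only through DMD, where it was high. Shh, Olig1 and Artn did not pass it, so the 3 tested do not stand for the list. Runx2, also a factor of bone and connective tissue cells, rose by 2.31 ± 0.54 on the log2 scale (edgeR adjusted p = 0.0276), from a mean of 0.587 CPM in Ctr (SD 0.133, n = 2) to 2.89 in DMD (SD 1.39, n = 3). Jun, the central factor of this response, averaged 16.7 CPM in Ctr (SD 5.54, n = 2) and 11.8 in DMD (SD 1.39, n = 3). Its mean in WT was also 11.8 CPM (SD 1.05, n = 2). Jun was not called in DMD over Ctr (log2 fold -0.50 ± 0.24, edgeR adjusted p = 0.184). Against WT, Runx2 rose by 2.24 ± 0.53 (adjusted p = 0.0245). Gdnf, a neurotrophic factor, was also called against WT (adjusted p = 0.0298), with 3 counts in the 2 WT muscles and 85 in the 3 DMD muscles, a ratio of scaled levels of 9.06 with a counting interval of 3 to 44.8. Since Gdnf was tested only because it was high in DMD, this call is a description and no support for a response of the list. The Runx2 call over Ctr was lost without Ctr-1 (0.21), Ctr-2 (0.0722), DMD-1 (0.0751) or DMD-2 (0.0613), and that over WT without WT-1 (0.153), WT-2 (0.19), DMD-1 (0.0648) or DMD-2 (0.0552). The Gdnf call was lost without WT-1 (0.107), WT-2 (0.198) or DMD-1 (0.0686) and with DESeq2 (0.0516). Of 12 signals and regulators of myelination, 11 were tested and none was called against Ctr by edgeR or DESeq2 (1, Pou3f1, at an unadjusted p below 0.05), with a median log2 fold of 0.18. The most expressed, Wwtr1 (the Hippo pathway coactivator TAZ), gave -0.26 ± 0.21. Nab2, a co-regulator of Egr2, rose against WT by 1.74 ± 0.38 (adjusted p = 0.0204), a call lost without WT-1 (0.167) or WT-2 (0.168).

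The median log2 fold was 0.03 over 6 of 8 nerve sheath genes tested, of which Osr2 fell by 1.2 on the log2 scale in DMD over Ctr (SE 0.23, edgeR adjusted p = 0.016), a call lost without Ctr-1 (0.114) or Ctr-2 (0.0534) and with totals alone (0.0713). Of 10 axonal genes, 3 were tested and none was called by edgeR, while 2 (Uchl1 and Tubb3) had an unadjusted p below 0.05 and DESeq2 called 1 (Tubb3). Uchl1, a ubiquitin hydrolase abundant in neurons, gave 0.83 ± 0.36 (adjusted p = 0.146). The markers of connective tissue and immune cells given above moved between the same groups as Ncam1, Runx2 and Osr2, and their part was not tested. Along the section order, where 3.79% of all genes were called, 2 other genes of myelinating Schwann cells were higher first than last. They were Gldn (gliomedin, secreted at nodes of Ranvier), at a log2 fold of 1.74 ± 0.35, and Cnp (a phosphodiesterase of non-compact myelin), at 0.51 ± 0.15. Between groups neither was called, with log2 folds of DMD over Ctr of 0.83 ± 0.33 for Gldn and 0.57 ± 0.22 for Cnp (edgeR adjusted p = 0.119 and 0.103). Both had an unadjusted p below 0.05 in that comparison. Itgb4, an integrin of Schwann cells and perineurium, was the 1 of 4 nerve sheath genes called, at 1.04 ± 0.27 (edgeR adjusted p = 0.0232). The call of Gldn was lost without Ctr-1 (0.0958), that of Itgb4 without WT-1 (0.111), WT-2 (0.175), Ctr-1 (0.339) or DMD-1 (0.0699), and that of Cnp without any single muscle but DMD-1 (0.0635 to 0.345).

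The genes whose profiles over 20 bins were most like the mean profile of the 5, among 4650 genes with at least 5 CPM in every muscle, were ranked by their mean correlation over the 7 muscles. The 5 members and myelin genes that are not reported here were not among these candidates, so the ranking does not tell where other myelin genes stand. Prkar1a, a regulatory subunit of protein kinase A, came first at 0.628, followed by Apod (0.561), an apolipoprotein. Tpsb2, Actc1, Eln, Mid1ip1, Slc27a1, mt-Tm, Cxcl14 and Igfbp4 made up the rest of the first 10, the last of them at 0.448. The median over all candidates was 0.00353 and the 99th percentile 0.318. Among the members, Mbp ran closest to Sox10 (mean correlation 0.499), S100b (0.472) and Pmp22 (0.455) and least close to Prx (0.284), values in the range of those with the endothelial and the pericyte and smooth muscle sums (0.471 and 0.439). Prx is also the gene with the fewest counts, and bins of 1 muscle share their libraries.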

How the data were processed

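The data were RNA sequencing of single cryosections of mouse tibialis anterior in 7 muscles (2 WT, 2 Ctr, 3 DMD), 1 table per muscle. The deposited values are expected counts: per the file headers, multi-mapped and overlapping reads had been divided into fractions by featureCounts 2.0.1, which left 20 to 26% of nonzero values off whole numbers. The aligner was STAR 2.7.7a and the genome GRCm38, per the submitters' processing notes. Per the labels' protocols, read 2 held an 8-base molecular identifier and a section barcode.

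Here, sections with a total of at least 1000 and at least 20% of their muscle's median were kept, summed per muscle, portion or region, and the sums rounded to whole numbers. Tests used edgeR 4.0.16 in R 4.3.3 (filterByExpr, TMM, quasi-likelihood F test over all groups, with the muscle as replicate), fitted on the 53083 genes shared by all tables, with Benjamini-Hochberg adjustment over all genes tested and calls at an adjusted p below 0.05. Comparisons along the order and between regions had the muscle as a block and averaged the 3 groups with equal weight. Standard errors were taken as the size of the log2 fold over the root of its F statistic. Bins used log2 of CPM plus 10. The scripts were tested on simulated data. The members and lists were chosen with earlier results of these data known. Of each list, called genes were named first by fold, up to 3, and otherwise the most expressed measured gene. Genes of like profile were the 10 with the highest mean correlation. Jun, Pou3f1 and Tubb3 were named after their values were seen. Alternatives were RLE scaling, totals alone in place of TMM (added after seeing the data), DESeq2 1.42.0, no filter, all sections, a replicate block, the 2 groups alone, mitochondrial genes left out, sections thinned to 100000 counts, ends of 20% of sections each, other shares and scores for regions, and each muscle left out. No sample was left out of the main results. A planned comparison of sections rich in myelin genes, and the list of other myelin genes between groups, are not reported here.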

Additional observations from a re-analysis of the deposited data

How the results depend on the processing

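Of 366 values of the 5 genes under an alternative, 318 kept their direction and their side of the threshold, 16 lost the call, 15 gained it and 17 changed sign, all 17 without a call. In DMD over Ctr, the number of the 5 genes called went from 1 to 0 with the Ctr and DMD groups alone and with thinned sections, to 2 with the replicate block (Sox10 joined, adjusted p = 0.032), and to 0 to 1 without single muscles. In WT over Ctr it went from 0 to 1 (Pmp22) with no filter on low counts, DESeq2, the replicate block or the 2 groups alone. In middle over ends it went from 1 to 2 with no filter or ends of 20% and to 0 to 1 without single muscles, and in first over last from 3 to 1 with ends of 20% (where Sox10 was not tested) and to 1 to 3 without single muscles. In endplate-rich sections it went from 0 to 1 with no filter, all sections, the top 30% or a summed score, and to 0 to 1 without single muscles. In first over last, DMD minus Ctr, a comparison chosen after seeing the data, it went from 0 to 1 with no filter or ends of 20%, and to 0 to 1 without single muscles. The causes were not tested.

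The number of all genes called in DMD over Ctr was 1740, ranging from 56 to 3425 without single muscles (56 without Ctr-1) and from 683 (2 groups alone) to 3890 (replicate block) otherwise. In DMD over WT it was 2085, with 68 to 3595 and 1082 to 5148 (the latter with totals alone), and in WT over Ctr 50, with 2 to 97 and 50 to 860. Along the order it was 24 for middle over ends (14 to 38 and 21 to 46) and 384 for first over last (112 to 514 and 237 to 404). For endplate-rich sections it was 5 (1 to 8 and 5 to 75).

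The changes of sign were as follows, with ranges over single muscles left out. In middle over ends, DMD minus Ctr, Sox10 (0.32) gave -0.37 with all sections, Pmp22 (0.02) gave -0.32 with ends of 20% and -0.29 to 0.31 without single muscles, and Mbp (-0.11) gave -0.28 to 0.04. In first over last, DMD minus Ctr, Sox10 (-0.31) gave -0.82 to 0.45. With totals alone, an alternative chosen after seeing the data, DMD over WT turned from -0.58 to 0.18 in Mbp, from -0.22 to 0.56 in Pmp22, from -0.20 to 0.57 in Prx and from -0.48 to 0.19 in Sox10, and WT over Ctr from 0.29 to -0.14 in S100b. In DMD over WT, Sox10 gave -0.88 to 0.15 and Prx -0.59 to 0.22, and in WT over Ctr S100b gave -0.15 to 0.58, Sox10 -0.98 to 0.05 and Mbp -0.33 to 0.17.

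Of the calls of named list genes, 0 of 7 remained without Ctr-1, 3 of 7 without Ctr-2, 1 of 8 without either WT muscle, 5 of 12 without DMD-1, 6 of 12 without DMD-2, 11 of 12 without DMD-3, 1 of 7 with thinned sections, 6 of 9 with the 2 groups alone, 7 of 9 with DESeq2, 7 of 9 with totals alone, 11 of 12 with no filter and 0 of 1 with ends of 20%. The labels do not say whether muscles of the same replicate number pair. The correlation of their deviations was 0.00604 to 0.189, which cannot decide this with so few muscles per group. The replicate block moved the genes called in DMD over Ctr from 1740 to 3890. S100b and Prx, with 6 to 44 counts per muscle, are limited by depth in every comparison.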
